A study of Mus musculus with 20 samples.

Results

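The RNAs described here are 10 transcripts that the growing mouse oocyte makes for its own use: Zp1, Zp2, Zp3, Gdf9, Bmp15, Oosp1, Figla, Nobox, Mos and Kit. They were taken by gene symbol, as 10 of the 34937 genes counted, to ask whether RNA of the oocyte programme remains higher at the 8-cell (8C) stage in embryos that lacked maternal G9a, the histone H3 lysine 9 methyltransferase encoded by Ehmt2. Single embryos collected at E2.5 were compared: 9 Ehmt2Cntr embryos from Ehmt2F/+ mothers and 10 Ehmt2Mat embryos (mutants) from Ehmt2F/- mothers. All mothers carried Zp3-Cre, which recombines the conditional allele in the growing oocyte, all fathers were Ehmt2+/-, and the background was mixed. Of the controls, 3 had the zygotic genotype +/- (embryos 1, 3 and 10) and 6 had +/+. Of the mutants, 5 were -/- and had no functional copy (Ehmt2M/Z, embryos 1, 4, 5, 7 and 9), and 5 were +/- (Ehmt2M/+, embryos 2, 3, 6, 8 and 10). Each embryo was lysed after its zona pellucida had been taken off. The labels do not name mothers or litters, so the p-values below treat each embryo as independent.

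The oocyte lives on RNA that it stores while it grows, and most of this store is degraded in a wave that begins at meiotic maturation and ends after the embryo has switched on its own genome. Zona pellucida proteins, oocyte growth factors and the transcription factors that drive their genes are well known members of this store, and their RNAs usually decline soon after fertilization. No oocytes or earlier embryos were measured here, so the decline itself cannot be read from these data, and RNA left from the oocyte cannot be told apart from RNA made by the embryo. In whole embryos the values are shares of all counted RNA, so that more of a transcript per embryo cannot be told apart from less of everything else.

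The promoters of Zp3 and Oosp1 are given first. That of Zp3 is shown because its activity in oocytes is what the Cre line uses, and that of Oosp1 because Oosp1 was the transcript that passed the test below. Both sequences are those of RefSeq on GRCm38.p6 and run 5′ to 3′ on the strand of the gene, from 250 bases before the start site to 50 bases after it. Zp3 lies at chr5:135979855-135980154 on the plus strand and Oosp1 at chr19:11691002-11691301 on the minus strand. Capitals mark the E-box letters CANNTG, the element bound by basic helix-loop-helix factors such as FIGLA, and the letters TATAA on either strand.
Zp3: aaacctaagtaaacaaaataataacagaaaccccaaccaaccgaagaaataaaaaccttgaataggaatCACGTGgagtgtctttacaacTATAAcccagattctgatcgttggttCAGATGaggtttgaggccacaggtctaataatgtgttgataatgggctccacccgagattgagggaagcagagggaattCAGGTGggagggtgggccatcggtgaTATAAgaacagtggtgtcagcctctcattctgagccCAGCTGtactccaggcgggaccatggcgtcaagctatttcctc
Oosp1: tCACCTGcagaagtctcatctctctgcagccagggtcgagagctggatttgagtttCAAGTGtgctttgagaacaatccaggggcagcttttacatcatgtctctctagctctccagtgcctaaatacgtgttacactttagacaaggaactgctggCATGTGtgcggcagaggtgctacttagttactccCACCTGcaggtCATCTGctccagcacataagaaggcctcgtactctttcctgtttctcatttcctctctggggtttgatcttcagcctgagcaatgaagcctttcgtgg
The Zp3 window held 4 E-box matches and 2 TATAA matches, and the Oosp1 window held 5 E-box matches and no TATAA match. An E-box match was found in 72.3% of 32851 promoter windows of this length, 4 or more matches were found in 6.49% of them, 5 or more in 2.10%, and a TATAA match in 24.9%. Of the 10 transcripts, 6 had a promoter in the table used, and among the others Figla also held 4 E-box matches, Nobox held 2, and Bmp15 and Kit held 1 each. These matches are letters only and no binding was measured.

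Total counts ranged from 8231646 to 30602434 per embryo, and 3 counts were worth between 0.0908 and 0.359 CPM, the count as a share of the TMM-scaled library, depending on the embryo. Mitochondrial genes took 6.47% to 20.4% of the counts in controls and 8.03% to 21.7% in mutants. The targeted gene Ehmt2 had 66.4 to 253 CPM in controls (median 133) and 58.4 to 158 CPM in mutants (median 94.7), a log2 fold change of -0.47 (SE 0.24) that did not pass the edgeR test (adjusted p = 0.233). Reads were counted over the whole gene, so this value does not check the deletion. Of the 12 blastomere markers, Dppa3, Tead4 and Tfap2c were above 140 CPM in all embryos. Others were not: Sox2 reached 0.25 CPM at most in mutants, Krt8 was at 0 in control 5 and Krt18 at 0.060 CPM in control 3. Cdx2, a trophectoderm factor, was above 1 CPM in controls 6, 7 and 8 and in mutant 10 and at or near 0 elsewhere, and Ovgp1, the secreted glycoprotein of the oviduct epithelium, was above 100 CPM in control 10 and in mutants 1, 2, 3, 4 and 6. The members are given with and without the embryos rich in Ovgp1, and Oosp1 also without those with Cdx2.

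All 10 transcripts were counted in at least 1 embryo of each group at E2.5, and 1 of the 10 differed between the groups. Of the 10, 8 had enough counts to enter the edgeR quasi-likelihood fit across 11754 genes, and Mos and Figla did not. Oosp1 was higher in mutants, no member was lower, and 7 did not pass the threshold of 0.05 after Benjamini-Hochberg adjustment over all genes. Across all genes tested 9.35% passed, and 4.37% passed and were higher in mutants, so that a single call among 8 is close to the share of the whole table. At an unadjusted p under 0.05 edgeR also placed 1 member above and 0 below, and DESeq2 called the same 1 higher and 0 lower. Over all genes, 2734 of 11754 had an unadjusted p under 0.05 in edgeR, and DESeq2 called 2054 of 15365. The median log2 fold change of the 8 tested was -0.25, against -0.04 over all genes, and without Oosp1 it was -0.46.

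**Figure D1:**
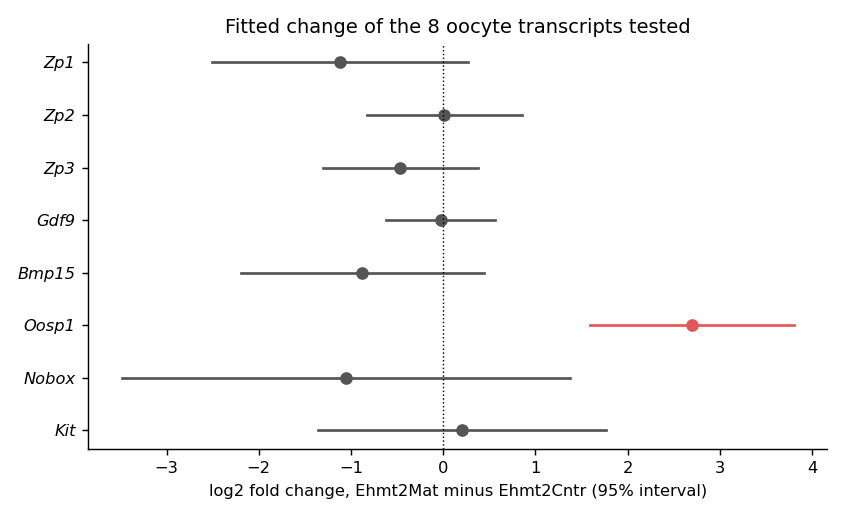
Fitted log2 fold change (mutants minus controls, x axis) of the 8 oocyte transcripts tested, with 95% intervals as bars and the transcript past the threshold in red. The interval of Oosp1, 1.59 to 3.80, lies above 0 and the other 7 intervals include 0.

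Per kilobase of exon the levels ordered the transcripts in controls as Zp3 (mean 35.3 RPKM, CPM divided by kilobases of exon), Gdf9 (19.4), Oosp1 (12.1), Zp1 (6.56), Zp2 (5.97), Bmp15 (4.22), Nobox (1.29), Kit (0.65), Figla (0.15) and Mos (0.083). In mutants Oosp1 stood first (78.6 RPKM), ahead of Zp3 (25.6), Gdf9 (19.01), Zp2 (6.01), Zp1 (3.01), Bmp15 (2.29), Kit (0.75), Nobox (0.62), Mos (0.26) and Figla (0.17). Every pair of neighbours in each order had overlapping ranges in the group that gave the order. The amplification favours 3′ ends, so a level per kilobase is relatively low for long transcripts such as Kit, with 8911 bases of exon.

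Zp1, Zp2 and Zp3 encode the glycoproteins of the zona pellucida, the coat through which sperm bind. Zp3 had 55.2, 41.2, 101, 23.2, 32.7, 13.4, 16.1, 21.9 and 116 CPM in controls 1, 2, 3, 5, 6, 7, 8, 9 and 10, and 22.8, 61.4, 41.4, 44.4, 20.6, 60.6, 17.0, 13.5, 41.6 and 15.2 CPM in mutants 1 to 10. The groups overlapped, with controls 3 and 10 above every mutant and 5 of 10 mutants above the control median of 32.7 CPM. The log2 fold change was -0.46 (SE 0.41, 95% interval -1.31 to 0.38), and edgeR gave an adjusted p of 0.554. Within controls the 3 embryos with the zygotic genotype +/- had 55.2 to 116 CPM and the 6 with +/+ had 13.4 to 41.2 CPM, ranges that did not overlap and were noticed in the data rather than tested. With only +/- embryos in both groups (3 against 5) the log2 fold change of Zp3 was -1.27 (SE 0.54, edgeR adjusted p = 0.688).

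The other zona transcripts had fewer counts and varied as widely. Zp1 ranged from 1.99 to 29.1 CPM in controls (median 7.80) and from 0 to 12.8 CPM in mutants (median 6.66). Controls 1, 3 and 9 lay above every mutant, and mutants 2, 3 and 10 below every control. The fitted log2 fold change of Zp1 was -1.12 (SE 0.67, 95% interval -2.51 to 0.27, edgeR adjusted p = 0.338). Zp2 ranged from 6.98 to 32.1 CPM in controls (median 12.1) and from 5.27 to 37.6 CPM in mutants (median 9.79), with the highest values in control 1 and mutant 10. Its log2 fold change was 0.01 (SE 0.41, 95% interval -0.83 to 0.85, edgeR adjusted p = 0.991), an interval that reaches less than 1 log2 unit either way.

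Gdf9 and Bmp15 encode secreted factors of the TGF-beta family through which the oocyte acts on its granulosa cells. Gdf9 had 39.9, 47.3, 86.7, 50.3, 21.4, 12.4, 41.8, 34.4 and 20.5 CPM in controls 1, 2, 3, 5, 6, 7, 8, 9 and 10, and 35.4, 28.3, 33.1, 35.3, 25.9, 42.4, 48.7, 41.6, 56.9 and 38.6 CPM in mutants 1 to 10. It was counted in all 19 embryos and the mutants lay inside the range of the controls, at 38.6 CPM ± 9.3 (SD, n = 10) beside 39.4 CPM ± 21.9 (SD, n = 9). The log2 fold change was -0.03 (SE 0.29, 95% interval -0.62 to 0.57, edgeR adjusted p = 0.970), the narrowest interval among the 8. Bmp15 ranged from 1.38 to 29.7 CPM in controls (median 10.6) and from 0.18 to 18.3 CPM in mutants (median 7.46). Mutants 3, 6 and 9 were below every control and controls 3, 5 and 9 above every mutant. The log2 fold change of Bmp15 was -0.88 (SE 0.64, 95% interval -2.20 to 0.44, edgeR adjusted p = 0.449).

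Oosp1 encodes a small protein secreted by the oocyte and named after it. It had 15.5, 6.58, 24.5, 28.7, 6.19, 0.15, 9.46, 6.67 and 8.41 CPM in controls 1, 2, 3, 5, 6, 7, 8, 9 and 10, and 55.2, 20.7, 45.5, 87.5, 33.6, 204, 70.4, 104, 49.6 and 93.6 CPM in mutants 1 to 10. All mutants were above the control median of 8.41 CPM and 9 of 10 were above every control, with mutant 2 alone inside the range of controls 3 and 5. The mean was 76.4 CPM ± 52.3 (SD, n = 10) in mutants and 11.8 CPM ± 9.3 (SD, n = 9) in controls. The fitted log2 fold change was 2.70 (SE 0.54, 95% interval 1.59 to 3.80), a 6.49-fold higher level, with an edgeR adjusted p of 0.0028. By adjusted p it stood at place 157 of the 11754 genes, and by the size of its increase at place 69.

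The higher level was present in both classes of mutants. Oosp1 had 33.6 to 87.5 CPM in the 5 Ehmt2M/Z embryos (median 55.2) and 20.7 to 204 CPM in the 5 Ehmt2M/+ embryos (median 93.6), and these ranges overlapped. Leaving out any 1 embryo gave log2 fold changes between 2.41 and 2.98 and adjusted p-values between 0.0014 and 0.0062. Control 7 had the lowest value of the controls, 2 counts, and without it the log2 fold change was 2.53 (adjusted p = 0.0014). Without the 3 controls and 1 mutant above 1 CPM of Cdx2 it was 2.31 (edgeR adjusted p = 0.0080). With the 8 embryos of zygotic genotype +/- alone it was 2.53 (SE 0.69) and lost the call (edgeR adjusted p = 0.608), in a fit with 3 controls in which 1 gene of 13401 was called.

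**Figure D2:**
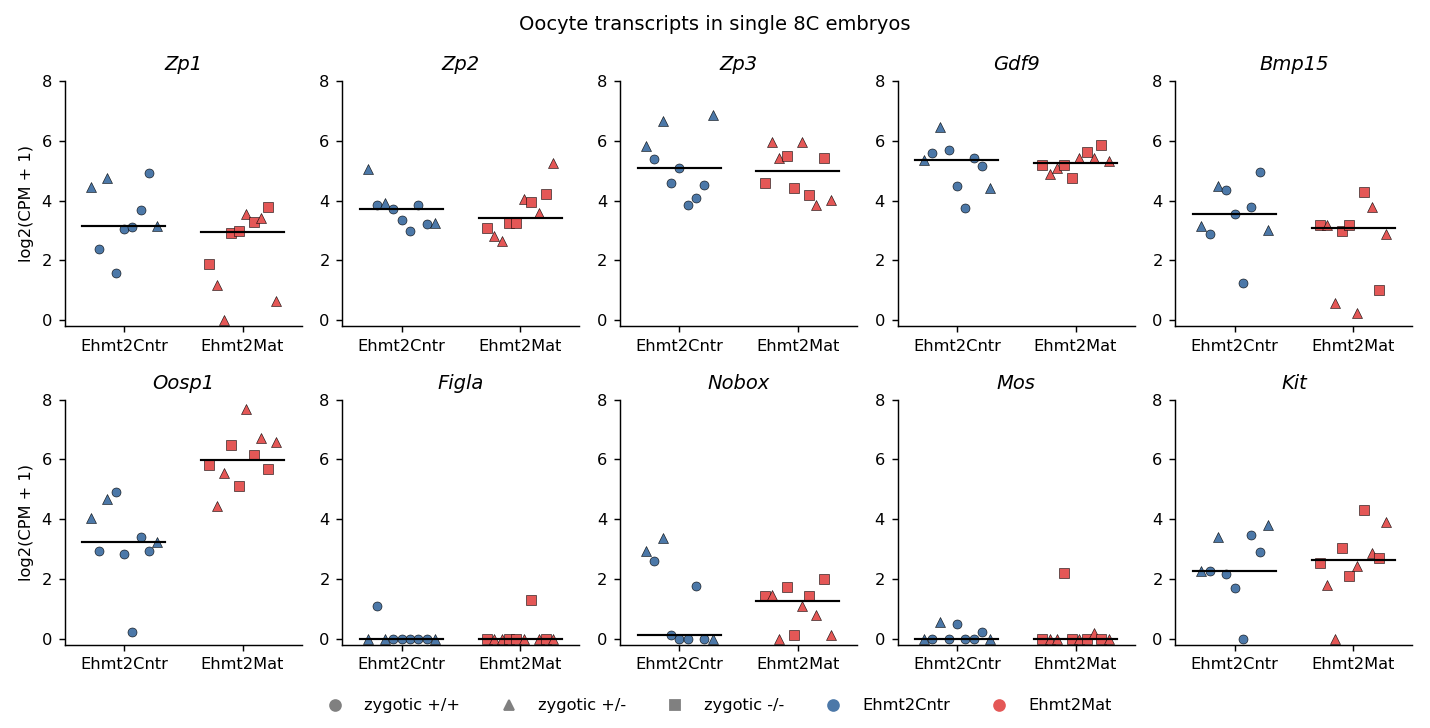
Level of each of the 10 transcripts, as log2(CPM + 1) on the y axis, in each embryo, with embryos in the order of their numbers within a group, colour for the group, shape for the zygotic genotype and a black line at the group median. Oosp1 is the panel in which 9 of 10 mutants sit above every control, while in the other panels the groups overlap.

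RNA of oviduct marker genes was unevenly spread over the embryos and is given here beside Oosp1. The source of this RNA was not tested. Ovgp1 ranged from 0.045 to 369 CPM in controls (median 2.44) and from 9.57 to 2767 CPM in mutants (median 103), with a log2 fold change of 3.41 (SE 1.27) that did not pass the edgeR test (adjusted p = 0.0926). The 4 oviduct markers summed to between 0.090 and 382 CPM in controls and to between 9.57 and 2809 CPM in mutants. Foxj1, Pax8 and Muc1, which mark ciliated and secretory cells, were at 0 in 7, 4 and 8 of 9 controls and in 3, 4 and 4 of 10 mutants. Within the mutants, mutant 3 had the highest Ovgp1 (2767 CPM) with 45.5 CPM of Oosp1, and mutant 10 had the lowest (9.57 CPM) with 93.6 CPM of Oosp1. Mutant 2 had the lowest Oosp1 (20.7 CPM) with 850 CPM of Ovgp1, and mutant 6 the highest (204 CPM) with 129 CPM of Ovgp1. The relation of the 2 transcripts over the 10 mutants was not tested. Without the 6 embryos at or above 100 CPM of Ovgp1, which left 8 controls and 5 mutants, Oosp1 was still called (log2 fold change 2.53, SE 0.64, edgeR adjusted p = 0.0418). With log2 Ovgp1 CPM as a covariate the log2 fold change was larger (3.30, SE 0.69) and narrowly missed the threshold (edgeR adjusted p = 0.0536), in a fit that called 8 genes in all. Without the same 6 embryos the other 7 transcripts again did not pass (lowest edgeR adjusted p = 0.441, for Zp3), with log2 fold changes of -0.83 for Zp3, -0.83 for Zp1, 0.38 for Zp2, 0.014 for Gdf9, -0.56 for Bmp15, -1.38 for Nobox and 0.95 for Kit. These fits were chosen after seeing the data, and they do not test where the Oosp1 RNA came from.

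**Figure D3:**
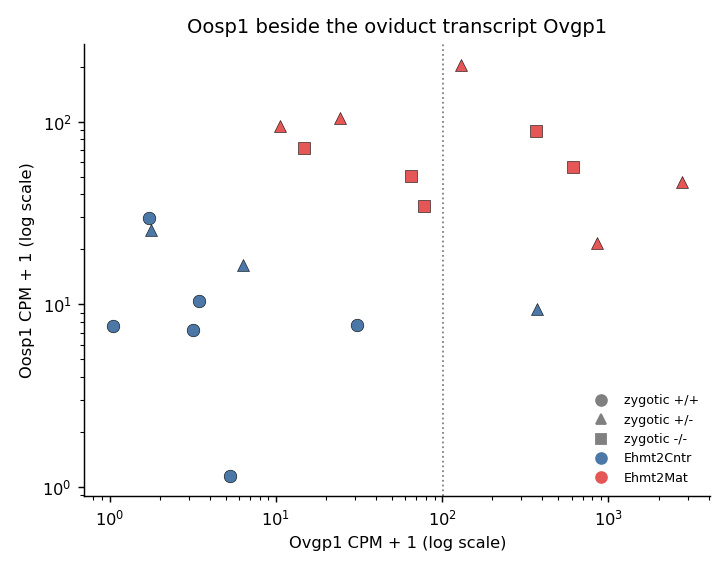
Oosp1 (y axis) against Ovgp1 (x axis) in each of the 19 embryos, as CPM + 1 on log scales, with colour for the group, shape for the zygotic genotype and a dotted line at the 100 CPM limit of Ovgp1. The 5 mutants left of the line, between 33.6 and 104 CPM of Oosp1, sit above all 8 controls left of it, which reach 28.7 CPM.

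RNA of marker genes of cumulus and granulosa cells was also unevenly spread, and its source was not tested. Of 15 cumulus and granulosa cell markers, 5 (Amh, Fshr, Foxl2, Has2 and Ptx3) were at 0 in all 19 embryos and the whole list summed to between 23.4 and 114 CPM in controls and to between 50.9 and 170 CPM in mutants, with 22.4 to 109 CPM and 42.0 to 164 CPM of it from Amhr2. The other 14 markers together had 0.99 to 17.7 CPM in controls (median 8.35) and 0.15 to 84.9 CPM in mutants (median 9.44), with mutants 2 and 3 above every control. Cyp11a1, the enzyme that starts steroid synthesis in granulosa and luteal cells, had 1.78 to 30.3 CPM in mutants 1, 2, 3, 5 and 6 and at most 0.090 CPM in controls. Inha, an inhibin subunit, reached 37.7 CPM in mutant 3 and 0.13 CPM in controls, with 4 mutants above every control. Inhba was at 0 in all controls and reached 1.92 CPM in mutants, where 4 had counts, and Star and Tnfaip6 had 3 and 2 mutants above every control. Of the 14 markers, 7 had a mutant above every control. The same share over all genes was not counted, so 7 of 14 has no background to be read against. Another 2 of these markers went the other way, with 2 controls above every mutant for Cyp19a1 and 1 for Lhcgr. The 3 of these markers that entered edgeR (Amhr2, Inhbb and Star) did not pass, also at an unadjusted p under 0.05, while DESeq2 tested 6 and called Cyp11a1 higher in mutants. The 5 mutants with less than 1 CPM of Cyp11a1 had 49.6 to 104 CPM of Oosp1, above every control. Without the other 5, in a fit added after seeing the data, Oosp1 was still called (log2 fold change 2.78, SE 0.59, edgeR adjusted p = 0.0324) and no other member was. Summed blood cell markers reached 8.31 CPM in controls (median 0.14) and 9.22 CPM in mutants (median 3.41). None entered edgeR, while DESeq2 tested 4 and called Alas2 higher in mutants, with 5 mutants above every control. Summed sperm markers reached 0.77 and 1.23 CPM. The part of blood cells and sperm in the levels of the oocyte transcripts was not tested.

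Figla and Nobox encode transcription factors of the oocyte, FIGLA acting at E-boxes of the zona genes and NOBOX at homeobox elements of Gdf9 and other oocyte genes. Figla was counted in 2 embryos, with 25 counts (1.13 CPM) in control 2 and 30 counts (1.46 CPM) in mutant 7, and was at 0 counts in the other 17, which allows up to 3 counts in each. Being below the filter, it was compared by an exact permutation test over all 92378 splits of the embryos, and the difference of mean log2(CPM + 1) was 0.01 (two-sided p = 1.0, not adjusted). With counts in 2 embryos alone this test could not have given a p under 0.05, so it decides nothing about Figla. Nobox had 6.59, 5.09, 9.30, 0.090, 0, 0, 2.36, 0 and 0 CPM in controls 1, 2, 3, 5, 6, 7, 8, 9 and 10, and 1.66, 1.72, 0, 2.33, 0.077, 1.12, 1.70, 0.74, 3.03 and 0.082 CPM in mutants 1 to 10. Controls 1, 2 and 3 exceeded every mutant, yet 7 of 10 mutants were above the control median of 0.090 CPM. The log2 fold change of Nobox was -1.05 (SE 1.18, 95% interval -3.49 to 1.38, edgeR adjusted p = 0.655), so that at this depth neither an absence nor a several-fold change could be read.

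Mos encodes the kinase that holds the mature oocyte in metaphase II, and Kit encodes the receptor on the oocyte for Kit ligand from granulosa cells. Mos was counted in 3 of 9 controls, with 9 counts in control 6 (0.42 CPM), 8 in control 3 (0.48 CPM) and 3 in control 9, and in 2 of 10 mutants, of which mutant 4 had 118 counts (3.57 CPM) and mutant 8 had 3. The exact permutation test found a difference of 0.09 in mean log2(CPM + 1) (two-sided p = 0.978, not adjusted, 92378 splits). Kit ranged from 0 to 13.1 CPM in controls (median 3.78) and from 0 to 18.9 CPM in mutants (median 5.16), at 0 in control 7 and mutant 3. Mutants 7 and 10 were above every control. The log2 fold change of Kit was 0.20 (SE 0.76, 95% interval -1.36 to 1.76, edgeR adjusted p = 0.916).

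Summed over the 10 transcripts, controls had 42.1 to 293 CPM (median 137) and mutants 107 to 339 CPM (median 194). Oosp1 made up 0.364% to 20.6% of this sum in controls (median 6.89%) and 15.9% to 60.2% in mutants (median 38.1%), and only mutant 2 was below the highest control. Leaving Oosp1 out, controls had 41.9 to 269 CPM (median 123) and mutants 73.2 to 139 CPM (median 111), so that the remaining 9 transcripts were not higher in mutants by their medians. Mutants lay within the range of the controls, and their spread was narrower, with an SD of 23.4 CPM beside 64.2 CPM. The controls split by zygotic genotype: the 3 with +/- had 166 to 269 CPM and the 6 with +/+ had 41.9 to 130 CPM. The 5 Ehmt2M/+ embryos, also +/-, had 80.3 to 135 CPM, below those 3 controls. These ranges were noticed in the data and not tested. Control 7 had the lowest value of its group in 7 of the 8 tested transcripts and 33.0 CPM of Cdx2, the highest among the embryos. Mutant 3, with the most Ovgp1 and the lowest total count, was the lowest of its group in 4 of the 8.

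**Figure D4:**
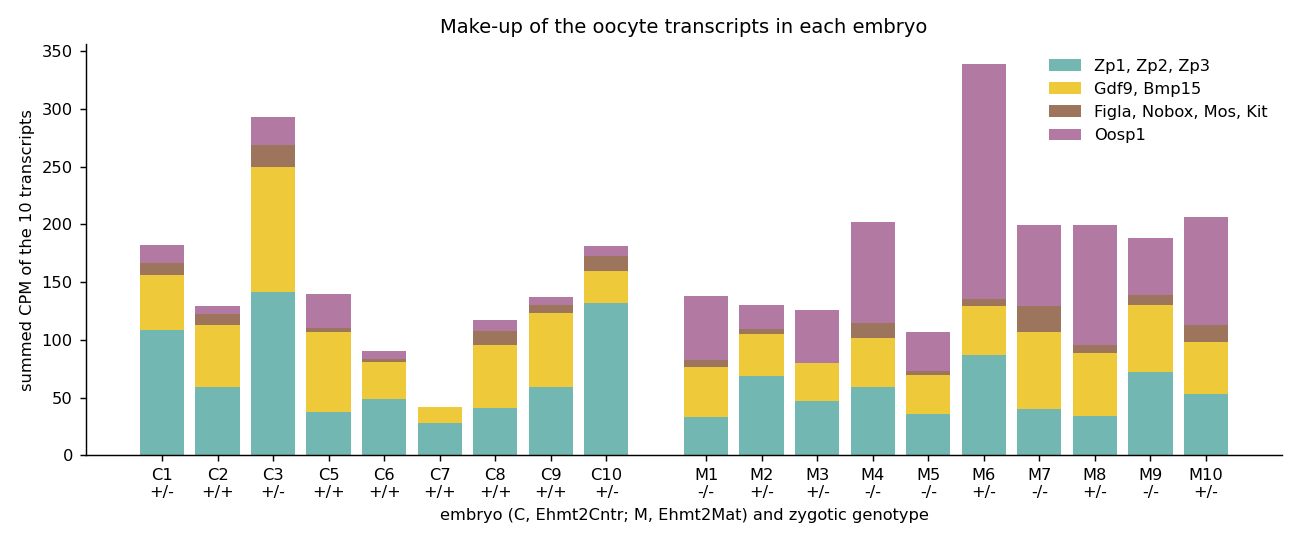
Summed CPM of the 10 oocyte transcripts (y axis) in each embryo, stacked by the kind of transcript, with the embryo number and zygotic genotype on the x axis. The Oosp1 part reaches at most 20.6% of a control bar and 60.2% of a mutant bar, and the rest of the bars overlap between groups.

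Across embryos the transcripts varied together to different degrees. Of the 28 pairs among the 8 tested, 26 had a Pearson r above 0 over the 19 embryos after each group was centred (log2 CPM, prior count 2), with a median of 0.32 and a range from -0.27 for Bmp15 and Zp3 to 0.76 for Gdf9 and Oosp1. These values share library depth and scaling, so they are descriptions only. Among the other 11746 genes tested, those whose centred levels followed the mean of the 8 most closely were Accsl (r = 0.87), Parp12 (0.87), Eif4e3 (0.86), D6Ertd474e (0.85) and Bicral (0.84). Their log2 fold changes between mutants and controls were between -0.88 and 0.15, and none of the 5 passed the edgeR threshold (lowest adjusted p = 0.476).

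The wider oocyte programme was read from 5 further lists with 58 genes, of which 46 were tested. In edgeR 0 of the 46 passed as higher in mutants and 2 passed as lower, 4.35% in all beside 9.35% of all genes tested. At an unadjusted p under 0.05, 3 were higher (Gpr3, Oosp3 and Plat) and 6 lower, beside 2734 of all 11754 genes. DESeq2 called 2 higher (Gpr3 and Oosp3) and 3 lower of 54, beside 2054 of all 15365 genes it tested. Foxo3, the factor that keeps primordial follicles dormant, had 49.8 to 127 CPM in controls and 18.1 to 42.8 CPM in mutants, ranges that did not overlap (log2 fold change -1.52, SE 0.22, edgeR adjusted p = 3.2e-04). Khdc3, a member of the subcortical maternal complex, had 13.1 to 210 CPM in controls and 0.72 to 47.5 CPM in mutants, with 8 of 10 mutants below every control (log2 fold change -2.96, SE 0.65, edgeR adjusted p = 0.0055). Foxo3 was still called without the embryos rich in Ovgp1 (log2 fold change -1.66, edgeR adjusted p = 0.0091) and Khdc3 was not (log2 fold change -2.65, edgeR adjusted p = 0.0917), and the same held without the mutants with Cyp11a1 (Foxo3 -1.71, adjusted p = 0.0126, and Khdc3 -2.48, adjusted p = 0.128). With Ovgp1 as a covariate 0 of the 46 were called by edgeR. At an unadjusted p under 0.05, 1 was higher and 3 lower, beside 1495 of all 11754 genes in that fit. The log2 fold change there was -1.34 for Foxo3 (adjusted p = 0.0608) and -1.77 for Khdc3 (adjusted p = 0.304). Both also lost the call with +/- embryos alone, at -1.19 for Foxo3 (edgeR adjusted p = 0.633) and -2.09 for Khdc3 (edgeR adjusted p = 0.694). Without the embryos above 1 CPM of Cdx2, 3 of 47 passed as lower: Foxo3, Khdc3 and Btg4, a deadenylase adaptor. Across all genes that edgeR fit called 792 of 12664, of which 413 were lower.

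**Figure D5:**
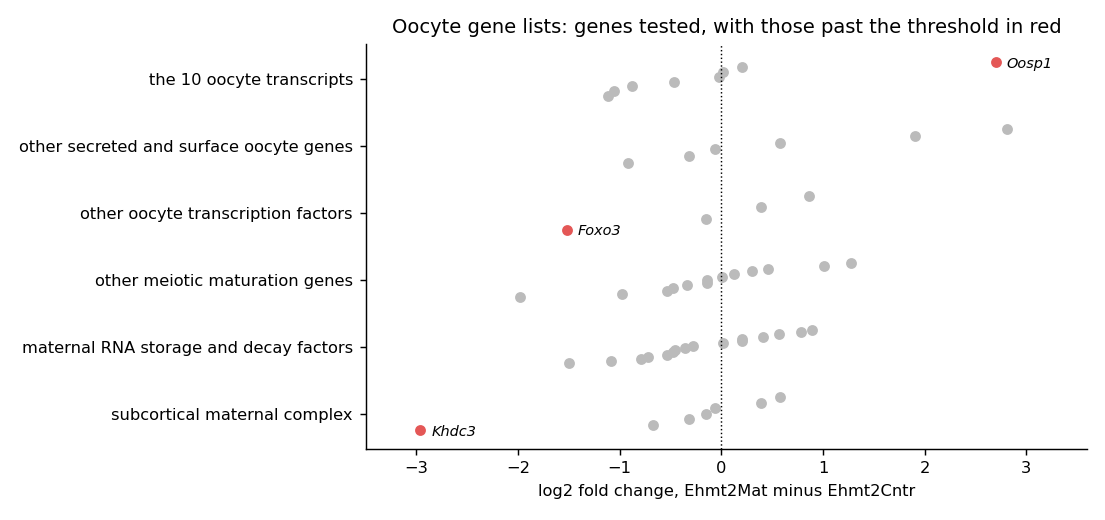
Log2 fold change (mutants minus controls, x axis) of each gene tested in the 10 oocyte transcripts and in 5 other oocyte lists (y axis), 1 point a gene, with genes past the edgeR threshold in red and named. Oosp1 is the red point to the right of 0, and Foxo3 and Khdc3 are to the left.

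By list, the 9 other secreted and surface oocyte genes gave 6 tested and 0 past the threshold (2 higher and 0 lower at an unadjusted p under 0.05) with a median log2 fold change of 0.26, and the 7 other oocyte transcription factors gave 4 tested, 1 lower (Foxo3) and a median of 0.12. The 14 other genes of meiotic maturation gave 13 tested, 0 past the threshold (1 higher and 0 lower at an unadjusted p under 0.05) and a median of -0.14. The 20 factors of maternal RNA storage and decay, which include the CCR4-NOT deadenylases and YBX2, gave 16 tested, 0 past the threshold (0 higher and 4 lower at an unadjusted p under 0.05, namely Btg4, Cnot7, Dcp2 and Tut4, of which DESeq2 called Tut4) and a median of -0.32. Counts at an unadjusted p stand beside 2734 of all 11754 genes tested by edgeR, so 4 of 16 is close to that share. The 8 genes of the subcortical maternal complex gave 7 tested, 1 lower (Khdc3) and a median of -0.15.

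Oosp1 lies on chromosome 19 (GRCm38, 11667460 to 11691150, minus strand) between a pair of related oocyte genes, Oosp2 at 6900 bases and Oosp3 at 5904 bases from it. Its exons overlapped no other gene, and 0 of its 50-base windows were shared with another gene. Oosp3 ranged from 0 to 1.61 CPM in controls (median 0.29) and from 0.33 to 17.8 CPM in mutants (median 3.00), with all mutants above the control median and 6 above every control. Its log2 fold change of 2.81 (SE 1.00) did not pass the edgeR threshold (adjusted p = 0.0754). Oosp2 was at 0 in 7 of 9 controls and 6 of 10 mutants, and reached 0.47 CPM in controls and 3.16 CPM in mutants. Zp1, also on chromosome 19 and 746827 bases away, had 0 to 12.8 CPM in mutants as given above.

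Among mutants the zygotic copy was not accompanied by a called difference in these transcripts. Between the 5 Ehmt2M/Z and 5 Ehmt2M/+ embryos edgeR called 0 of 12195 genes (0%, with 270 at an unadjusted p under 0.05 and 15 called by DESeq2), and of the 8 transcripts tested 0 passed, also at an unadjusted p under 0.05 and in DESeq2. The log2 fold change of Oosp1 was -0.66 (SE 0.48, edgeR adjusted p = 0.9997).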

How the data were processed

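For each embryo the authors deposited raw counts of reads per gene, without normalization. Per the file headers, featureCounts 1.5.0 counted exons of Ensembl release 82 genes on GRCm38 with an overlap of at least 10 bases, kept multi-mapping reads and counted a read for every gene it overlapped, while the methods describe TopHat2 alignment, SeqMonk counts and DESeq2. The sequencer is HiSeq1500 in the labels and HiSeq4000 in the methods, and cDNA was amplified with a 3′ bias. Control 4 is not analysed here.

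From these counts edgeR 4.0.16 (R 4.3.3) was used with filterByExpr, TMM and the quasi-likelihood test without covariates, adjusted over all genes tested. CPM and RPKM used TMM-scaled library sizes and the exon lengths in the files. Members below the filter were compared on log2(CPM + 1). The scripts were tested on simulated data. There edgeR recovered 14.8% of 108 genes changed by 1 log2 unit and 67.4% of 92 genes changed by 2 log2 units. The members and gene lists were chosen with earlier results of these data known, and 1 gene left out of the oocyte lists is not reported here. The text names the 10 members, Ehmt2 and the 5 genes most like the members. It also names genes of the other oocyte lists past the threshold (at most 6 a list). Names of genes at an unadjusted p, Btg4 and the marker genes were added after their values were seen. So were the zygotic splits of Zp3 and of the summed transcripts without Oosp1. As alternatives, size factors by RLE or the upper quartile, DESeq2 1.42.0, other count filters, a replicate block, +/- embryos only, no mitochondrial genes and each embryo left out were tried. Added after seeing the data were Ovgp1 as a covariate and fits without embryos at or above 100 CPM of Ovgp1 or 1 CPM of Cdx2 or Cyp11a1.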

Additional observations from a re-analysis of the deposited data

Results flagged for a closer look

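Of the 20 groups of values checked (10 transcripts in controls and in mutants), 6 held an embryo whose gap to its nearest neighbour was large for the range of its group by Dixon's criterion. The criterion flags about 1 in 20 groups by chance when values are normally distributed. A group with counts in 1 embryo alone, as for Figla, is flagged whatever its value, so 6 of 20 cannot be set against that rate. Zp2 stood out in control 1 (32.1 CPM, with 14.3 CPM in the next embryo) and in mutant 10 (37.6 CPM, next 17.8 CPM). Oosp1 stood out in mutant 6 (204 CPM, next 104 CPM), and without that embryo it was still called. Mos stood out in mutant 4 (3.57 CPM, next 0.13 CPM). Figla stood out in control 2 (1.13 CPM) and in mutant 7 (1.46 CPM), with 0 counts in all other embryos. These values were not weighed further.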

How the results depend on the processing

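The call of Oosp1 held in 28 of 30 alternatives, with log2 fold changes between 2.31 and 3.30. The count of members called was 1 in each fit that left out an embryo, and 0 when every embryo needed 10 counts (3 members tested, without Oosp1), with +/- embryos only and with Ovgp1 as a covariate. The count of genes called was 2054 with DESeq2, 1 with +/- embryos only, 8 with Ovgp1 as a covariate, 321 without the embryos at or above 100 CPM of Ovgp1, 146 without those at or above 1 CPM of Cyp11a1, and from 884 to 1262 with an embryo left out, beside 1099. Without the embryos at or above 1 CPM of Cdx2 the count of genes called was 792. Between Ehmt2M/Z and Ehmt2M/+ embryos DESeq2 called 15 genes, and edgeR called 0 with each mutant left out. Embryo numbers did not pair the groups (9 pairs, mean correlation 0.012, at most 0.086). A replicate block on the number gave 693 genes and kept the call of Oosp1 (adjusted p = 0.0234), and it turned the log2 fold changes of Gdf9 (0.14), Zp2 (-0.045), Nobox (0.72) and Kit (-0.019). Other turns of direction were in members that passed under no setting: Gdf9 without a filter (0.0012), with Ovgp1 as a covariate (0.51) and without the embryos rich in Ovgp1 (0.014) or with Cyp11a1 (0.16), Zp2 with at least 10 counts (-0.0027), with +/- embryos only (-0.28) and without the Cdx2 embryos (-0.49), Nobox with Ovgp1 as a covariate (0.96), Kit with +/- embryos only (-0.72) and without the Cdx2 embryos (-0.18), and Mos (-0.068) and Figla (-0.0057) with a pseudocount of 0.1, and Mos with DESeq2 (-2.46, SE 2.98, with no adjusted p, beside 1.67 in edgeR without a filter). With +/- embryos only, Nobox was at -2.84 and Zp1 at -2.04. With an embryo left out, Gdf9 ranged from -0.15 to 0.20, Zp2 from -0.31 to 0.29, Kit from -0.13 to 0.45, Zp3 from -0.60 to -0.17 (without control 10), Nobox from -1.30 to -0.50 (without control 3), Mos from -0.13 to 0.14 and Figla from -0.12 to 0.13. Intervals of the members not called reach up to 3.49 log2 units (Nobox), so that changes within them were not detectable at this depth and spread. The cause of these shifts was not tested.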

Other observations

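Markers of the stage itself are given for comparison with the oocyte transcripts. Of 12 markers of the 8-cell embryo and its blastomeres, 10 were tested by edgeR, 3 were higher in mutants, 1 was lower and 6 did not pass. That is 40% called, beside 9.35% of all genes tested. DESeq2 tested 12 and called 3 higher and 2 lower, the added one being Sox2, with 4 controls above every mutant. Tead4 and Tfap2c, transcription factors of the trophectoderm programme, were higher by 0.90 (SE 0.19, adjusted p = 0.0046) and 0.75 (SE 0.20, adjusted p = 0.0183) on the log2 scale. The Krüppel-like factors moved in opposite directions: Klf17 had 16.8 to 243 CPM in controls and 123 to 792 CPM in mutants (log2 fold change 1.58, SE 0.40, adjusted p = 0.0136), and Klf5 had 155 to 365 CPM in controls and 36.9 to 129 CPM in mutants, with no overlap (log2 fold change -1.49, SE 0.23, adjusted p = 4.9e-04). Without the embryos rich in Ovgp1, Klf5 was still called by edgeR (-1.32, adjusted p = 0.0148), and Tead4 (0.85, adjusted p = 0.0803), Tfap2c (0.95, adjusted p = 0.0535) and Klf17 (1.23, adjusted p = 0.188) were not. With Ovgp1 as a covariate none of these 4 was called (adjusted p from 0.0778 to 0.380), nor with +/- embryos alone, where edgeR called 1 gene in all and the log2 fold changes were 1.03 for Tead4, 0.49 for Tfap2c, 1.12 for Klf17 and -1.52 for Klf5. Of 13 markers of the 2-cell stage, 11 were matched to genes and 2, Tdpoz1 and Tcstv1, were tested by edgeR. Neither passed in edgeR or at an unadjusted p under 0.05. DESeq2 tested 7 and called 1, Zfp352, higher in mutants, with 6 mutants above every control. The list summed to 3.16 to 44.5 CPM in controls and to 9.90 to 50.7 CPM in mutants.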
